A study of Saccharomyces cerevisiae with 18 samples.

Results

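The genes of protein entry into the endoplasmic reticulum (ER) were followed across 6 strains of Saccharomyces cerevisiae. They are 32 genes of 8 complexes or pathways: the signal recognition particle (SRP) with 6, its receptor with 2, the Sec61 translocon with 3, the Ssh1 translocon with 2, the Sec63 complex with 4, signal peptidase with 4, the GET pathway with 6 and the ER membrane complex (EMC) with 5. The list was given by gene symbol, each symbol was found once in the array annotation, and the 32 were among 5449 genes tested. RNA from 18 bioreactor cultures in mid-exponential batch growth, 3 per strain, was measured on 18 arrays. The wild type, CEN.PK 113-5D, carried the empty vector p426GPD (WN), a vector for insulin precursor, p426-YapIns (WI), or a vector for α-amylase, p426-YapAmy (WA). The deletion strains dN, dI and dA carried the same vectors in hac1::kanMX cells of that background. All 6 strains thus held a high-copy plasmid marked with URA3, and the 2 products were driven by a constitutive glycolytic promoter. How many transformants stand behind each strain is not given in the sources used here, so strain and clone cannot be told apart.

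Proteins enter the ER by several routes. SRP recognises a hydrophobic signal as it leaves the ribosome and docks at its receptor, and the chain is threaded through the Sec61 pore while it is made. Other precursors are finished in the cytosol and drawn through the pore with the Sec63 complex and the lumenal Hsp70 Kar2p. Signal peptidase then removes the signal, while the GET pathway and the EMC insert membrane proteins whose anchors the SRP route does not serve. The product of HAC1 is the activator that carries out the unfolded protein response, and in yeast it activates many genes of the secretory pathway.

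Both products were made with a pre sequence from the yeast protease Yap3, which directs them to this machinery. The designed pre sequence of the insulin precursor insert has 63 bases, or 21 codons, and the primer used for the start of the α-amylase insert shares 25 bases with it. The first is printed because it encodes the entry signal of the insulin precursor in WI and dI. The second is the forward primer with which the leader was copied from that insert for α-amylase. The product in WA and dA thus had the same leader. Capitals mark the start codon in the first sequence and the shared bases in the second.

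Yap3 pre sequence: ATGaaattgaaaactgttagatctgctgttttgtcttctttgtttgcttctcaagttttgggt
α-Amylase primer: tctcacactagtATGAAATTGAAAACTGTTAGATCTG

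The values are log2 signals of probe sets, scaled between arrays by the authors, so that a change in total mRNA lies outside them and levels of different genes cannot be compared. In RNA from whole cultures, a change in a share of the cells and a change in every cell cannot be told apart. HAC1 lay at 10.54 to 10.96 in the 9 wild-type arrays and at 1.08 to 1.75 in the 9 deletion arrays, under the background level of 4.38 to 4.63 in every deletion array. Every entry gene lay above background in all 18 arrays. The third replicate of dN stood apart, with a residual SD of 0.361 over all genes and 0.134 over the entry genes, against 0.0768 to 0.250 and 0.0457 to 0.119 in the other arrays. Differences were tested with limma on all 18 arrays, and genes with an adjusted p under 0.05 (Benjamini-Hochberg, all 5449 genes) were called. An unadjusted p under 0.05 is not a call, and the share of all genes at that cut was not counted. For 1 gene in 3 arrays against 3, exact permutation p-values stop at 0.1, and the calls therefore depend on variances pooled over genes by limma.

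Averaged over the 3 vectors, the genes of the Sec63 complex, the Sec61 pore and signal peptidase were lower in the HAC1 deletion strains, and most genes of SRP, the GET pathway and the EMC were not called. Of the 32 genes 13 were lower in the deletion strains, 4 were higher and 15 were not called. All 4 genes of the Sec63 complex, all 3 of the Sec61 translocon and all 4 of signal peptidase were called lower. Those 11 genes make up most of the 13, and the others were GET3, the ATPase of the GET pathway, and SRP21, a fungal subunit of SRP. The higher genes were EMC1, SGT2, SRP14 and YKL154W, the gene of the SRP receptor beta subunit.

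The deletion comparison called 43.1% of all genes, with 19.4% lower and 23.7% higher. The entry genes were called lower in 40.6% of cases and higher in 12.5%, and 53.1% were called in all. Their median log2 fold change was -0.09, against 0.04 over all genes. After quantile normalization the same comparison called 7 entry genes higher and 13 lower, and 2422 of all genes against 2351 before. The call of SRP14 ended in 10 of 18 fits that each left out 1 array, that of SPC1 in 7 and that of SRP21 in 3. Some uncalled genes gained a call in such fits. YDR292C, the gene of the SRP receptor alpha subunit, did so in 5, GET1 in 4, SRP72 in 3, and SSH1, GET2 and EMC6 in 1 each.

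The separation was complete for 12 genes. All 9 deletion arrays lay below all 9 wild-type arrays for SEC61, SBH1, SSS1, SEC62, SEC63, SEC66, SEC72, SPC2, SEC11 and GET3, a pattern that 7.05% of all genes showed. They lay above all 9 wild-type arrays for SGT2 and EMC1, as for 1.85% of all genes. The remaining 20 entry genes overlapped between the backgrounds.

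**Figure D1:**
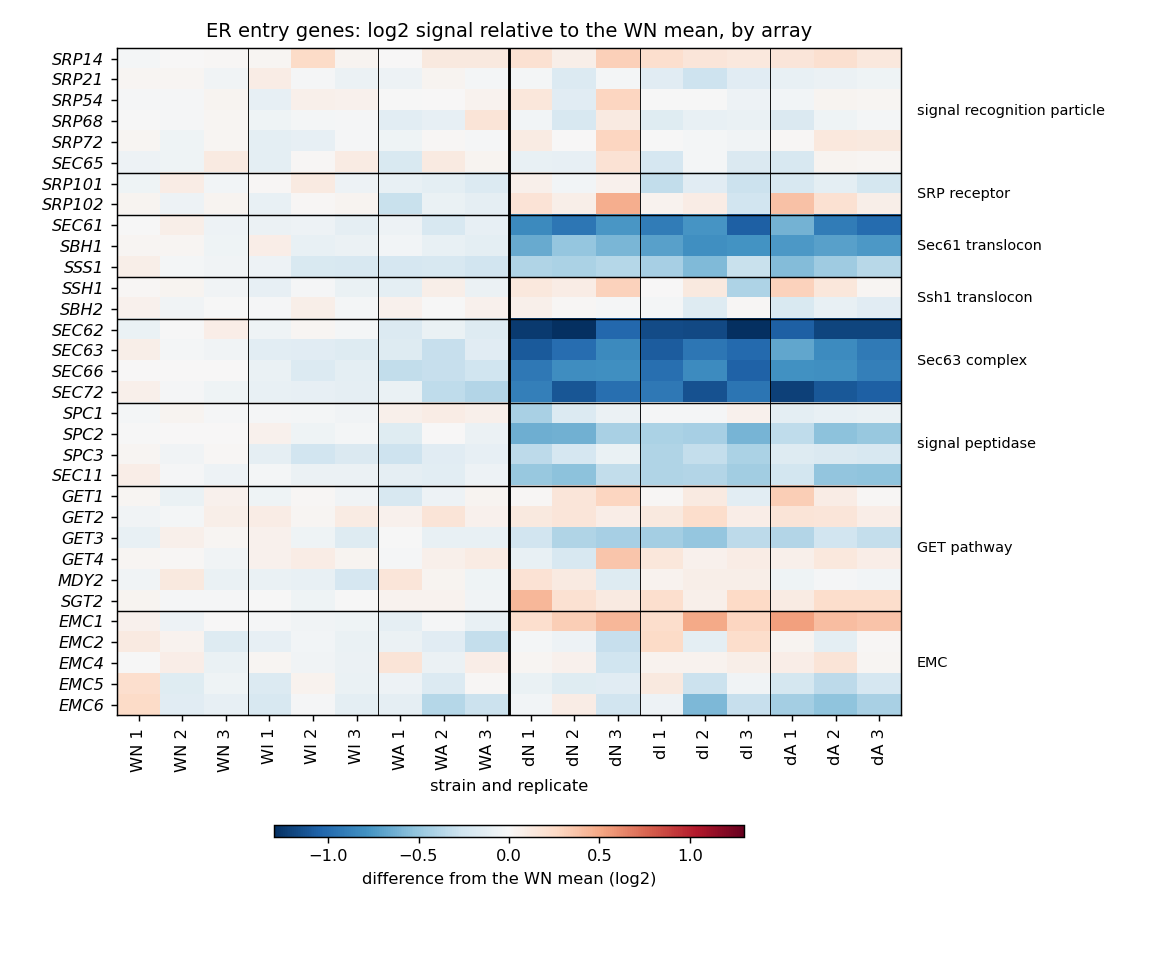
Log2 signal of the 32 entry genes (rows, grouped by complex) in each of the 18 arrays (columns) as the difference from the WN mean. The Sec61 and Sec63 genes form the block of low values in the 9 deletion arrays, down to a strain mean of -1.22 for SEC62 in dN, while EMC1 is a row of high values. The SRP receptor rows, alpha above beta, carry the gene symbols of YDR292C and YKL154W.

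The Sec63 complex, which works with the Sec61 pore in post-translational translocation, held the largest changes, those of SEC62 and SEC72. Its gene SEC66 changed less than SEC61. SEC62, whose product receives precursors at the membrane, read 9.63, 9.71 and 9.80 in WN, 9.66, 9.74 and 9.69 in WI and 9.54, 9.63 and 9.55 in WA. It read 8.47, 8.33 and 8.69 in dN, 8.55, 8.54 and 8.42 in dI and 8.65, 8.52 and 8.52 in dA. Every deletion array lay below every wild-type array, and the gap between the backgrounds was wider than the spread within either. Averaged over the vectors, SEC62 changed by -1.14 ± 0.05 (log2 fold change ± standard error), with adjusted p = 3.05e-11, a 2.20-fold decrease and the largest of any entry gene.

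SEC72, a peripheral subunit on the cytosolic side, read 9.51, 9.43 and 9.39 in WN, 9.35, 9.34 and 9.33 in WI and 9.36, 9.11 and 9.06 in WA. In the deletion strains it read 8.55, 8.33 and 8.46 in dN, 8.51, 8.31 and 8.49 in dI and 8.23, 8.34 and 8.38 in dA. The backgrounds did not overlap, although WA replicates 2 and 3 were the lowest of the wild-type arrays. It changed by -0.92 ± 0.05 (adjusted p = 4.62e-10).

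SEC63, whose J domain recruits Kar2p to the lumenal face of the pore, read 8.78, 8.67 and 8.65 in WN, 8.56, 8.55 and 8.53 in WI and 8.53, 8.40 and 8.55 in WA. The deletion arrays of SEC63 read 7.61, 7.71 and 7.87 in dN, 7.62, 7.76 and 7.69 in dI and 8.02, 7.88 and 7.78 in dA. The first dA array was the highest of the deletion arrays and still lay below the wild type. The averaged change was -0.81 ± 0.04, a 1.75-fold decrease.

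SEC66, which encodes the subunit also known as Sec71p, read 9.17, 9.17 and 9.17 in WN, 9.08, 8.99 and 9.04 in WI and 8.85, 8.87 and 8.91 in WA. The deletion strains gave 8.24, 8.36 and 8.37 in dN, 8.19, 8.35 and 8.12 in dI and 8.38, 8.37 and 8.28 in dA. Wild-type arrays were ordered by vector without overlap, with WN highest and WA lowest, whereas the deletion strains overlapped with each other. The averaged change of SEC66 was -0.73 ± 0.04 (adjusted p = 2.70e-10).

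The Sec61 translocon is the channel itself. SEC61, the pore subunit, read 11.02, 11.10 and 10.96 in WN, 10.95, 10.96 and 10.91 in WI and 10.96, 10.82 and 10.92 in WA, and 10.20, 10.09 and 10.27 in dN, 10.12, 10.26 and 9.97 in dI and 10.41, 10.12 and 10.03 in dA. The highest deletion array, the first of dA, lay below the lowest wild-type array, the second of WA. SEC61 changed by -0.79 ± 0.05 (adjusted p = 1.28e-08), a 1.73-fold decrease.

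SBH1, the beta subunit, read 10.18, 10.18 and 10.09 in WN, 10.24, 10.05 and 10.07 in WI and 10.11, 10.05 and 10.02 in WA. Under the deletion it read 9.49, 9.65 and 9.56 in dN, 9.44, 9.35 and 9.37 in dI and 9.40, 9.44 and 9.40 in dA. The 3 dN arrays were the highest of the deletion arrays. SBH1 changed by -0.65 ± 0.04 (adjusted p = 1.03e-09). SSS1, the gamma subunit that both pores share, moved less, by -0.30 (adjusted p = 5.23e-05), with deletion arrays at 9.19 to 9.48 and wild-type arrays at 9.52 to 9.84.

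The second pore of yeast, built on Ssh1p, gave another picture. SSH1, the Sec61-related pore subunit, read 9.54, 9.56 and 9.48 in WN, 9.42, 9.51 and 9.44 in WI and 9.40, 9.60 and 9.45 in WA. The deletion strains read 9.66, 9.62 and 9.83 in dN, 9.53, 9.65 and 9.13 in dI and 9.83, 9.67 and 9.55 in dA. The third array of dI was the lowest of all 18, and the other deletion arrays lay in the upper part of the wild-type range or above it. SSH1 gave an average of 0.12 ± 0.06 (adjusted p = 0.151) and was called higher without dI replicate 3, at 0.17 (adjusted p = 0.0145).

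SBH2, the beta subunit of the Ssh1 pore and paralog of SBH1, read 9.30, 9.20 and 9.24 in WN, 9.23, 9.32 and 9.22 in WI and 9.30, 9.24 and 9.30 in WA. Its deletion arrays read 9.31, 9.26 and 9.23 in dN, 9.22, 9.08 and 9.26 in dI and 9.05, 9.15 and 9.10 in dA. The dA arrays were the lowest strain and lay below all WA arrays. The averaged log2 fold change of SBH2 was -0.08 (adjusted p = 0.0773), and only the comparison of dA with WA called it, at -0.18 (adjusted p = 0.0386), a call that ended in 7 of 18 fits with 1 array left out.

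The difference between paralogs was itself tested by exchanging the background labels within each vector, an exact two-sided permutation test over 8000 arrangements chosen after the values had been seen. The deletion effect on SEC61 minus that on SSH1 was -0.91, with log2 differences of -1.02, -0.80 and -0.92 for the empty, insulin precursor and α-amylase vectors (exact permutation p = 0.00025). The difference for SBH1 and SBH2 was -0.57, with -0.60, -0.66 and -0.46 in the same order (exact permutation p = 0.00025). Each p is the smallest that this test can give and stays 0.00025 after Benjamini-Hochberg adjustment over the 2 pairs. Both differences had the same sign with all 3 vectors.

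**Figure D2:**
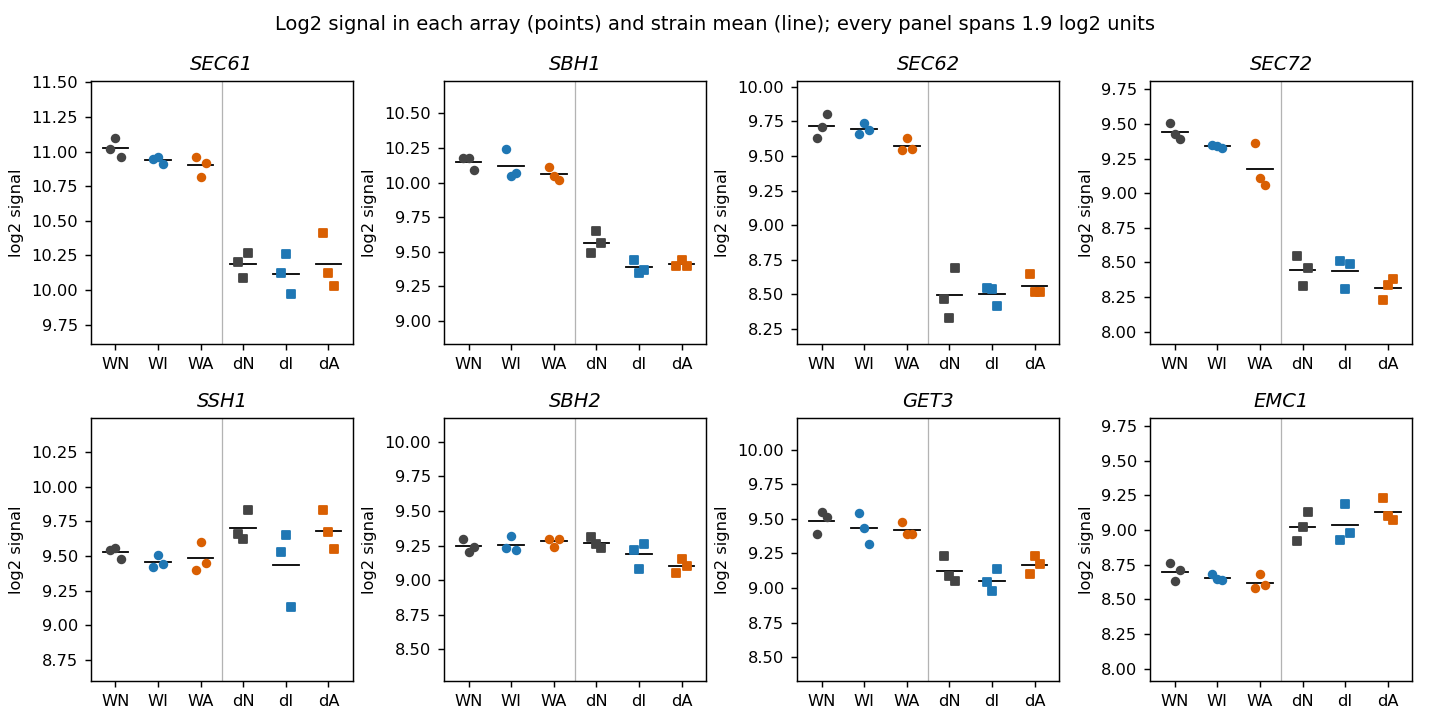
Log2 signal in each array (points) with the strain mean (line) for single entry genes, each panel spanning 1.9 log2 units. The wild-type strains WN, WI and WA lie left of the vertical line, and the SEC61 and SBH1 panels step down across it, with averaged changes of -0.79 and -0.65, where those of SSH1 and SBH2 do not.

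Signal peptidase, which cuts the signal from the entering chain, was called lower in all 4 subunits in the averaged comparison, by smaller amounts than SEC61 and SBH1. SPC2, an accessory subunit, lay at 7.91 to 8.22 in the deletion arrays and at 8.39 to 8.60 in the wild type, with an averaged log2 fold change of -0.47 (adjusted p = 6.52e-07). SEC11, the catalytic subunit, lay at 7.64 to 7.93 and at 8.03 to 8.26, with -0.37 (adjusted p = 1.04e-05). The backgrounds overlapped for the other subunits. SPC3, an essential subunit, changed by -0.14 (adjusted p = 0.0121), and SPC1, a small subunit, by -0.12 (adjusted p = 0.0314). Vector by vector, SPC2 and SEC11 were called lower with all 3, and SPC3 and SPC1 with the empty vector alone. SPC3 had log2 fold changes of -0.22, -0.19 and -0.01 for the empty, insulin precursor and α-amylase vectors. SPC1 had -0.22, 0.04 and -0.17, and its 3 dI arrays lay above its 3 WI arrays.

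The SRP route, which acts before the pore, gave small values. Of the 6 SRP genes 1 was called higher, 1 lower and 4 were not called, and their averaged log2 fold changes ran from -0.11 to 0.11. SRP14, of the Alu domain that slows elongation in mammals, changed by 0.11 (adjusted p = 0.0359) and SRP21 by -0.11 (adjusted p = 0.0261). The uncalled genes were SRP54, the GTPase that binds the signal (0.02), SRP68 (-0.06) and SRP72 (0.10), both core subunits, and SEC65, the yeast counterpart of SRP19 (-0.06).

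The SRP receptor has an alpha subunit gene, YDR292C, and a beta subunit gene, YKL154W, which are given by their systematic names. Their values were split. YKL154W, whose product is anchored in the membrane, was called higher at 0.20 (adjusted p = 0.0209), with deletion arrays at 6.96 to 7.68 that overlapped the wild-type arrays at 6.92 to 7.24. YDR292C, whose product meets SRP, gave an average of -0.10 (adjusted p = 0.0505) and was called lower in dI against WI, at -0.27 (adjusted p = 0.00974).

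In the GET pathway, which delivers tail-anchored proteins, GET3 and SGT2 went opposite ways. GET3, the ATPase that carries the client, lay at 8.98 to 9.23 in the deletion arrays and at 9.32 to 9.55 in the wild type, with an averaged log2 fold change of -0.33 (adjusted p = 1.85e-05). SGT2, the co-chaperone that takes the client first, lay at 10.01 to 10.37 and at 9.88 to 9.99, with 0.21 (adjusted p = 0.00134). The adaptor genes GET4 (0.03) and MDY2 (0.05) and the membrane receptor genes GET1 (0.13) and GET2 (0.08) were not called.

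EMC1 was the only one of the 5 EMC genes to be called. EMC1, a subunit with a large lumenal part, lay at 8.92 to 9.23 in the deletion arrays and at 8.58 to 8.76 in the wild type. It changed by 0.41 ± 0.04 (adjusted p = 2.64e-06), the largest increase among the entry genes. The uncalled subunits were EMC2 (0.07), EMC4 (0.02), EMC5 (-0.11) and EMC6 (-0.16). Both neighbours of EMC1 on its chromosome went down, POF1 by -0.68 (adjusted p = 6.55e-08) and MGR1 by -1.31 (adjusted p = 9.63e-12), and any part of this in the EMC1 value was not tested.

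The deletion effect was then taken for each vector alone. With the empty vector, 2 entry genes were higher and 12 lower in dN than in WN, where 21.5% of all genes were called. A fit of the WN and dN arrays alone called 0 higher and 9 lower, and 343 of all genes. With insulin precursor, 1 was higher and 12 lower in dI than in WI, against 20.2% of all genes. With α-amylase, 2 were higher and 11 lower in dA than in WA, against 23.2% of all genes. The shares called lower were 37.5%, 37.5% and 34.4% of the entry genes, beside 12%, 10.8% and 13.6% of all genes. The shares called higher were 6.25%, 3.12% and 6.25% of the entry genes, beside 9.49%, 9.47% and 9.6% of all genes. Counts of higher entry genes moved with single arrays: dN against WN had 6 without dN replicate 2, and dI against WI had 3 without dN replicate 3 or dI replicate 2. In dN against WN the count was 1 without any 1 of the WN arrays or without dN replicate 1, and in dI against WI it was 2 without dN replicate 1. In dA against WA it was 1 without WA replicate 1, dA replicate 1 or dA replicate 2. Over all genes, fits with 1 array left out called 724 to 1885 in dN against WN and 742 to 1634 in dI against WI. They called 921 to 1833 in dA against WA. The 1885 came without dN replicate 2 and the 1634 without dN replicate 3. With every array the 3 comparisons called 1170, 1103 and 1262 of all genes.

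Each vector's comparison has its own 6 arrays, but all took residual variances from the same fit, so the 3 sets of calls are not independent. The 10 genes SEC61, SBH1, SSS1, SEC62, SEC63, SEC66, SEC72, SPC2, SEC11 and GET3 were called lower in all 3, and EMC1 was called higher in all 3. Among all genes, 7.03% were called lower in all 3 and 1.8% higher in all 3. A fit of the WN and dN arrays alone called 0 entry genes higher and 9 lower, and 343 of all genes against 1170 with all strains. In that fit EMC1 and part of the 10 genes were thus not called. SEC62 gave log2 fold changes of -1.22, -1.19 and -1.01 for the empty, insulin precursor and α-amylase vectors. SEC63 gave -0.97, -0.86 and -0.60 and SEC66 gave -0.85, -0.82 and -0.54 in the same order. For EMC1 the values were 0.33, 0.37 and 0.51.

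Other entry genes were called for a single vector. SPC1 and SPC3 were called lower, and SGT2 higher, in dN against WN only, and SRP21 and YDR292C lower in dI against WI only. A call with a single vector does not make a change particular to that vector. For SGT2 the deletion arrays lay above the wild-type arrays with every vector. YKL154W was called higher in dA against WA only, at 0.38 (adjusted p = 0.0217), and this ended without WA replicate 1 (adjusted p = 0.0996), dA replicate 1 (0.107) or dA replicate 2 (0.0508). SBH2 was called lower in dA against WA only.

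**Figure D3:**
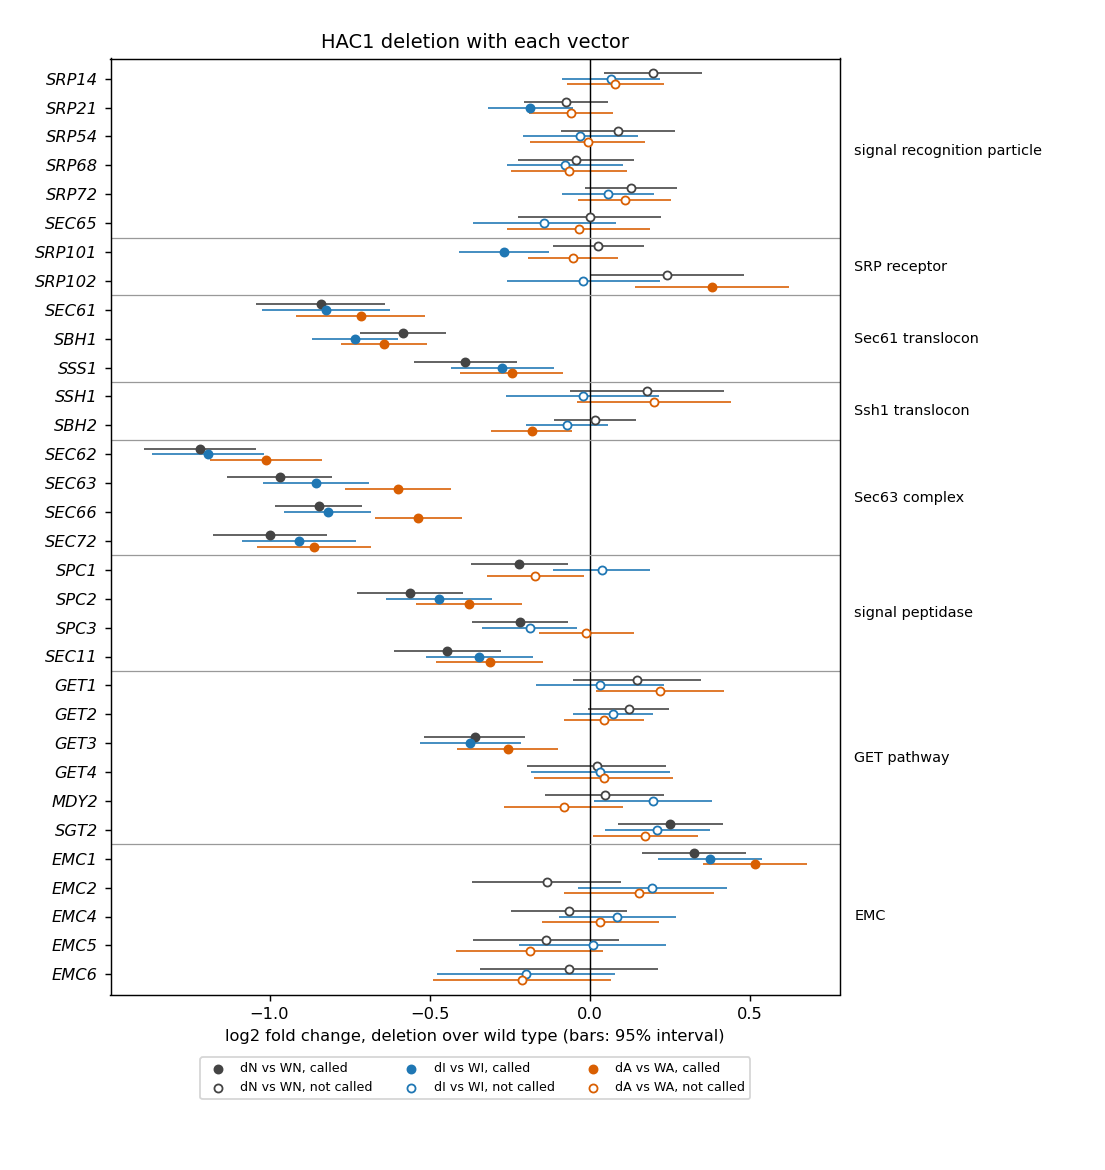
Log2 fold change of each entry gene between the deletion strain and the wild type with the same vector, with 95% intervals, 1 colour per vector and filled points where the gene was called. The 3 intervals lie left of 0 for the 10 genes called lower with every vector and right of 0 for EMC1.

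Whether the product changed the deletion effect was tested as an interaction. For insulin precursor limma called 0 of the 32 entry genes and 0.716% of all genes, with 2 entry genes at an unadjusted p under 0.05, YDR292C (-0.29, adjusted p = 0.228) and SPC1 (0.26, adjusted p = 0.357). For α-amylase limma called 0 of the 32 and 1.34% of all genes, with 3 entry genes at an unadjusted p under 0.05. Those were SEC63 at 0.37 (95% interval 0.14 to 0.60, adjusted p = 0.129), SEC66 at 0.31 (95% interval 0.12 to 0.50, adjusted p = 0.118) and SBH2 at -0.20 (adjusted p = 0.334). SEC63 and SEC66 were called once dN replicate 3 was left out. Fits that left out 1 array called 28 to 400 of all genes for the α-amylase interaction, against 73 with every array. With array weights the insulin precursor interaction called YDR292C and SPC1, and the α-amylase interaction SEC63, SEC66 and SPC3. The weighted fits called 345 and 817 of all genes for the 2 interactions.

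Few entry genes were called between a producing strain and its empty-vector strain. In wild type with insulin precursor (WI against WN), limma called 0 of the 32 genes and 0.294% of all genes. Unadjusted p was under 0.05 for 2 of them, SSS1 (-0.16) and SPC3 (-0.19). Their median log2 fold change was -0.04, against -0.02 over all genes. The 3 WI arrays lay below the 3 WN arrays for 7 entry genes, or 21.9%, against 10.4% of all genes. These were SRP68, SEC61, SSS1, SEC63, SEC66, SEC72 and SPC3. The WI arrays lay above the WN arrays for 2 entry genes, SRP14 and GET4, or 6.25%, against 6% of all genes.

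With α-amylase (WA against WN), 1 entry gene was called lower and 0 higher, while 4.79% of all genes were called, 1.54% lower and 3.25% higher. SEC66 read 9.17, 9.17 and 9.17 in WN and 8.85, 8.87 and 8.91 in WA. The strains did not overlap. The change was -0.29 ± 0.06 (adjusted p = 0.0160). The call ended without WN replicate 1 (adjusted p = 0.0659), WN replicate 2 (0.0634) or WA replicate 2 (0.0664), and the cells of WN replicate 1 were broken by another method, as its label has it.

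The genes with an unadjusted p under 0.05 in WA against WN were SEC66, SEC72, SSS1, SEC63 and SPC3. SEC72 gave -0.27 (adjusted p = 0.0920), SSS1 -0.22 (adjusted p = 0.119), SEC63 -0.21 (adjusted p = 0.160) and SPC3 -0.17 (adjusted p = 0.205). The 3 WA arrays lay below the 3 WN arrays for 8 entry genes, or 25%, against 12.8% of all genes. They were YDR292C, YKL154W, SEC61, SSS1, SEC63, SEC66, SEC72 and SPC3. The WA arrays lay above the WN arrays for 1 entry gene, SPC1, or 3.12%, against 12% of all genes. The WI and WA comparisons share the WN arrays. The median over the entry genes was -0.08, against -0.0043 over all genes.

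In the deletion background the products were compared with dN. In dI against dN, 1 entry gene was higher and 1 lower, with 12.8% of all genes called, 7.05% higher and 5.78% lower. YDR292C read 7.81, 7.71 and 7.80 in dN and 7.43, 7.60 and 7.47 in dI, with no overlap. The change was -0.27 ± 0.07 (adjusted p = 0.0135), and the call ended without dI replicate 1 (adjusted p = 0.0656) or dI replicate 3 (0.0597). In WI, YDR292C differed from WN by 0.02 (adjusted p = 0.987).

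SPC1 read 6.55, 6.80 and 6.90 in dN and 6.96, 6.96 and 7.03 in dI. The first dN array was the lowest of all 18 for this gene. SPC1 was called higher at 0.23 (adjusted p = 0.0446), a call that ended in 16 of 18 fits with 1 array left out, and without dN replicate 1 its log2 fold change was 0.13. The count of called entry genes rose to 5 without dN replicate 2 and to 3 without dN replicate 3. Those fits called 1186 and 906 of all genes, against 699 with every array.

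In dA against dN, limma called 0 of the 32 genes, with 11.8% of all genes called and 4 entry genes at an unadjusted p under 0.05. YDR292C had -0.21 (adjusted p = 0.05002) and EMC6 -0.40 (adjusted p = 0.0615), and SBH2 (-0.17) and SBH1 (-0.15) were the others. The dI and dA comparisons share the 3 dN arrays. Without dN replicate 3, whose spread was the widest, SEC63, SPC1 and GET4 were called higher and EMC6 lower. That fit called 1344 of all genes, against 641 with every array. Weighting each array by its quality, limma called 10 entry genes in this comparison, 4 higher and 6 lower, and 2045 of all genes.

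The 2 products were also compared with each other, on arrays that do not include WN or dN. In WA against WI, limma called 0 entry genes and 0.496% of all genes, and SEC66 (-0.16) and YDR292C (-0.15) had an unadjusted p under 0.05. In dA against dI, limma called 0 entry genes and 0.991% of all genes. There SPC3 (0.19), SEC63 (0.20), SSH1 (0.25) and YKL154W (0.25) had an unadjusted p under 0.05, with adjusted p of 0.225 or more. With array weights limma called 9 entry genes in dA against dI and 1, SEC72, in WA against WI. The weighted fits called 1440 and 287 of all genes in these comparisons, against 54 and 27 without weights.

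**Figure D4:**
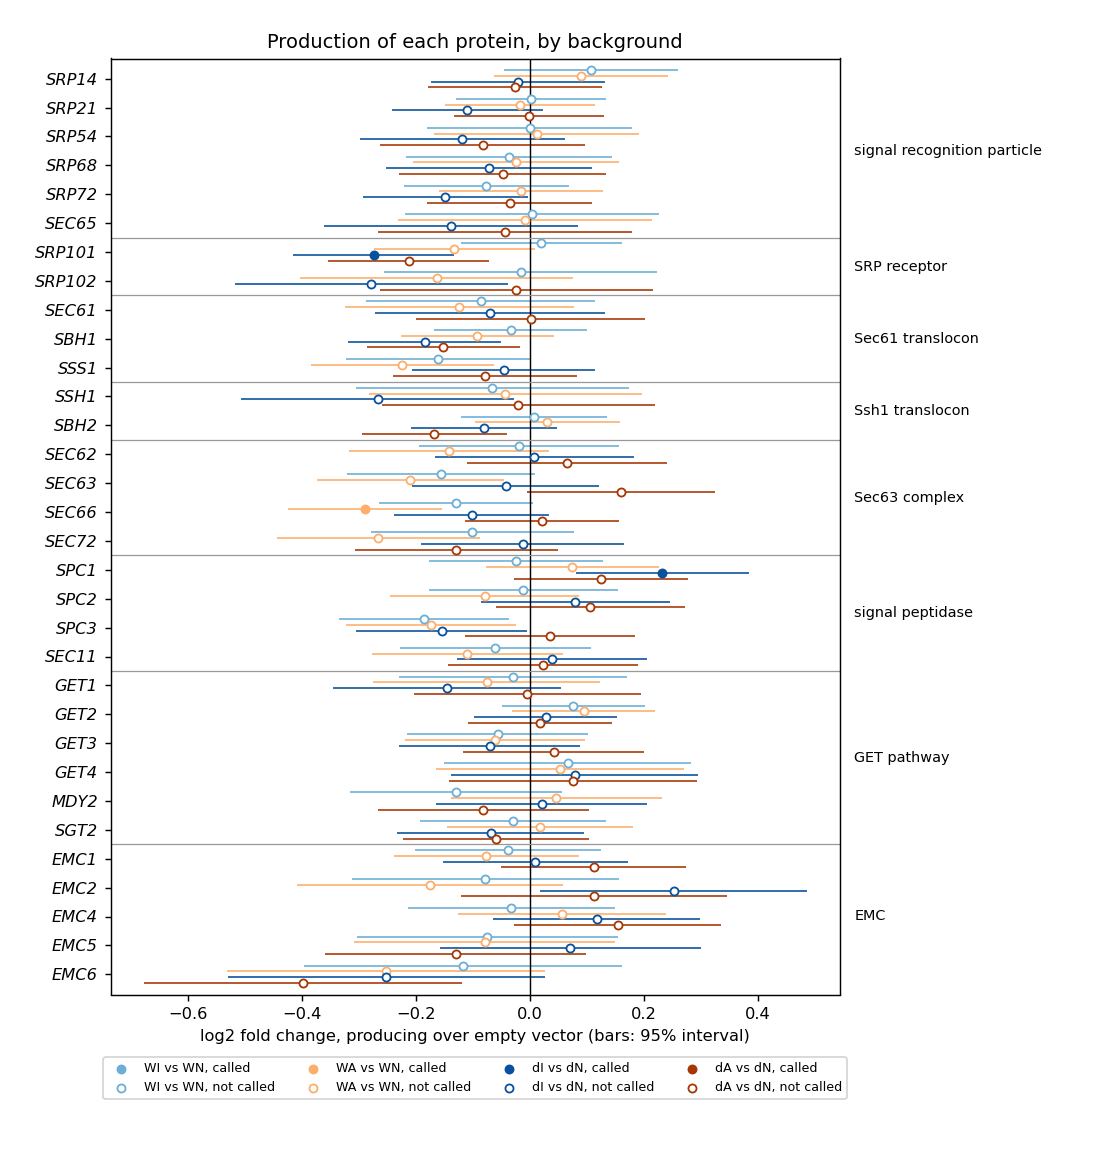
Log2 fold change of each entry gene between the producing strain and the empty-vector strain of the same background, with 95% intervals, and filled points where the gene was called. Filled points are SEC66 in WA against WN (-0.29) and YDR292C (-0.27) and SPC1 (0.23) in dI against dN.

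Other genes of ER entry, listed with earlier results known, were measured on the same arrays. Of 30 such genes, 13 were lower and 5 higher in the averaged deletion comparison, with a median of -0.10. Among all genes 19.4% were lower and 23.7% higher, with a median of 0.04. All 6 genes of the lumenal Hsp70 system were lower, and their changes ran from -1.26 to -3.03, beyond that of any of the 32 genes. KAR2, the Hsp70 that pulls precursors through the pore, changed by -1.44 (adjusted p = 1.08e-12), and LHS1, a second lumenal chaperone and exchange factor of Kar2p, by -2.02. SIL1, the other exchange factor, changed by -3.03, and the J-domain genes JEM1, SCJ1 and ERJ5 by -2.22, -1.32 and -1.26.

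Of the 9 oligosaccharyltransferase genes, whose enzyme adds glycans to the entering chain, 5 were lower. OST2 changed by -0.70 and SWP1 by -0.60. SPF1, a P-type ATPase that removes misplaced proteins from the ER membrane, changed by -0.73 (adjusted p = 1.99e-08), whereas YPF1, a signal peptide peptidase, had 0.05. Of the 5 cytosolic Hsp70 and Hsp40 genes that keep precursors unfolded, 4 were higher, and SSA4, a stress-induced Hsp70, rose by 0.59 (adjusted p = 0.000523). SSA1 and SSA2 are near-identical, so their separate values are uncertain. None of 3 genes of the nascent polypeptide-associated complex was called by limma, with 0 at an unadjusted p under 0.05. Of 5 further EMC and SND genes, the latter serving another targeting route, 1 was higher, 1 lower and 3 were not called. The higher gene was SOP4, of the EMC.

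**Figure D5:**
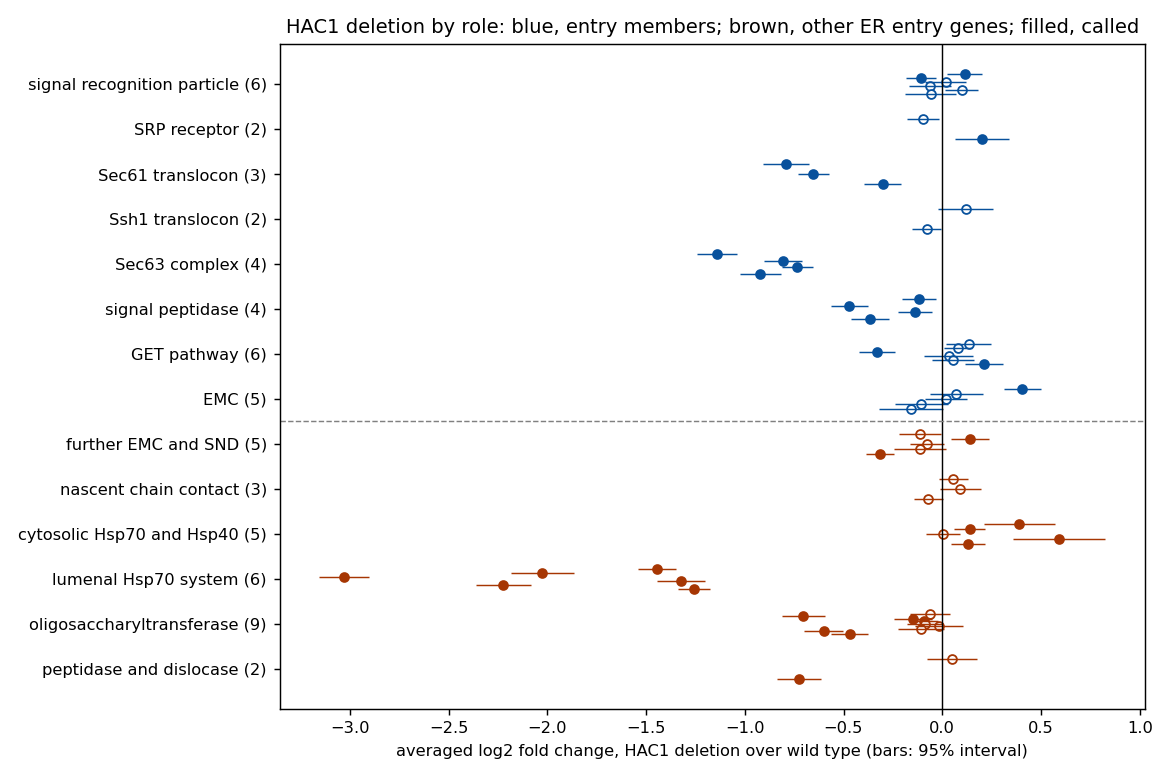
Averaged log2 fold change of HAC1 deletion over wild type with its 95% interval, for the 32 entry genes (blue) and the other ER entry genes (brown) grouped by role, with filled points where called. Values run from -3.03 for SIL1 to 0.59 for SSA4, and the cytosolic Hsp70 and SRP groups lie near or above 0 where the lumenal Hsp70 and Sec63 groups lie below it.

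Members of a complex followed each other to unequal degrees over the 18 arrays. The 6 pairs within the Sec63 complex had a median Pearson r of 0.966, from 0.935 to 0.981, and the 3 pairs of the Sec61 translocon a median of 0.877. Signal peptidase had 0.607 over 6 pairs and SRP 0.443 over 15. The GET pathway had -0.078 over 15 pairs and the EMC 0.063 over 10, and SSH1 with SBH2 had -0.434. These values describe the arrays only, since all points share the 6 strains and the difference between the backgrounds.

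The position of the lowered genes was compared with their neighbours in the reference gene order. Of 19 tested protein-coding neighbours of the 10 genes that lay lower in all 9 deletion arrays, 5 were lower, 4 higher and 10 not called, with a median of -0.06. Among all genes 19.4% were lower and 23.7% higher, with a median of 0.04, so the neighbours were near the shares of all genes. A neighbour of SEC62, EEB1, changed by -1.09 (adjusted p = 5.03e-06), a size close to that of SEC62, whereas NOG1 on its other side had -0.17 (adjusted p = 0.278). For SEC72, SEC66, SEC61, SBH1 and GET3, no tested neighbour was lower, and for SEC61 only FBP1 was tested.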

How the data were processed

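The deposited values are log2 signals of 10928 probe sets of the Affymetrix Yeast Genome 2.0 array. The authors made them from the scans with the background correction of RMA, a qspline normalization that put the arrays on 1 scale, and a median polish of the perfect-match probes, and they were used as deposited. Of the probe sets, 7244 carried 1 gene symbol, 1 carried several and 3683 were unnamed. A total of 5498 matched 5449 genes of the yeast reference, and for 47 genes with several the one with the highest mean was kept. Each of the 32 entry genes had 1 probe set. The background level was the 95th percentile of the other 5430 probe sets on each array. All 18 columns were matched to samples through the labels, and 0 were left unmatched.

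A mean for each of 6 strains (n = 3 cultures each) was fitted with limma 3.58.1 in R 4.3.3, with empirical Bayes variances and Benjamini-Hochberg adjustment over all 5449 genes. The replicates are separate bioreactor cultures, and their number limits the precision. One dN array has no number in its title and is called dN replicate 1, and cell breakage for WN replicate 1 is described differently from the other 17 labels. The steps were also run on simulated data with independent normal noise and no array of wider spread. That run cannot speak to the stability of the calls. The entry genes, the other lists and the tests were chosen with earlier results of these data known. Array values are printed for entry genes called in the averaged deletion comparison with an absolute log2 fold change of 0.5 or more, for up to 4 called genes of each product comparison, and for the paralogous pairs, and other genes are named at the same fold. GET3, EMC1 and further genes are described beside their complexes, and the neighbours named were chosen after their values were seen. Of 31 other entry genes, 30 were measured, and SND1 was not analysed here. The alternatives were a fit limited to the compared strains, a replicate block, quantile normalization, median centring, a filter on dim genes, other probe set choices, a trended prior, array weights, a stricter threshold and leaving out each array. Promoter motifs and protein sequences were not analysed here.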

Additional observations from a re-analysis of the deposited data

How the results depend on the processing

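Under the alternatives, fold changes were followed for every entry gene in the averaged deletion comparison and for a few chosen pairwise values. The latter were SEC66 in WA against WN, YDR292C and SPC1 in dI against dN, and EMC1, YKL154W and SBH2 in dA against WA. None of these fold changes went from a called value to the opposite sign, and the others were not followed. Of the followed values and the paralog differences under all alternatives, 938 kept their side of the threshold, 65 fell below it and 29 passed it. With only the strains compared in the fit, dN against WN called 9 entry genes (14 with all strains) and dI against dN 0 (2 with all strains). Over all genes these fits called 343 and 71, against 1170 and 699. After quantile normalization dI against dN called 1. With median centring, with the filter on dim genes or with the trended robust prior, dA against dN called 1, YDR292C (SRP receptor alpha subunit), instead of 0. Over all probe sets, WA against WN called 0 and dI against dN 1. At an adjusted p under 0.01, WA against WN and dI against dN called 0. With array weights the counts were 22 in the averaged deletion comparison, 15 in dN against WN, 18 in dI against WI and 16 in dA against WA. They were 4 in WA against WN, 5 in dI against dN, 10 in dA against dN, 1 in WA against WI and 9 in dA against dI. The insulin precursor interaction had 2 and the α-amylase interaction 3. The weights raised the calls over all genes as well, from 2351 to 3215 in the averaged deletion comparison and from 261 to 1454 in WA against WN. They rose from 699 to 1619 in dI against dN and from 641 to 2045 in dA against dN. In dN against WN the rise was from 1170 to 1925 and in dI against WI from 1103 to 2235. For dA against WA it was from 1262 to 2375. Calls went from 27 to 287 in WA against WI and from 54 to 1440 in dA against dI. The causes were not tested.

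Leaving out 1 array at a time gave 14 to 19 called entry genes in the averaged deletion comparison, 11 to 17 in dN against WN, 11 to 16 in dI against WI and 9 to 14 in dA against WA. It gave 0 to 2 in WA against WN, 0 to 5 in dI against dN, 0 to 4 in dA against dN and 0 to 2 for the α-amylase interaction, and 0 in every such fit for WI against WN, WA against WI, dA against dI and the insulin precursor interaction. Calls over all genes in these fits were 2109 to 2680 in the averaged deletion comparison and 724 to 1885 in dN against WN. They were 742 to 1634 in dI against WI and 921 to 1833 in dA against WA. In WA against WN they were 97 to 520, in dI against dN 356 to 1186 and in dA against dN 333 to 1344. With the replicate number as a block, the counts were 18 in the averaged deletion comparison, 11 in dN against WN, 13 in dI against WI and in dA against WA, and 2 in dI against dN, where SBH1 took the place of SPC1. Over all genes this fit called 2303, 893, 1161, 1368 and 527 in the same order. Deviations of same-numbered arrays of different strains had a median correlation of 0.0556 over 40 pairs, 17 of them over 0.1. The other pairs had a median of -0.0297 over 95 pairs, 30 of them over 0.1. Whether the numbers pair the cultures cannot be told from these values. With 3 arrays per strain, standard errors of single comparisons were 0.06 to 0.13 on the log2 scale for the entry genes, and changes well above them were not called in some comparisons, such as EMC6 in dA against dN (-0.40, limma adjusted p = 0.0615).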
